A study of Mus musculus with 6 samples.

Results

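Copy-specific arms of multi-copy miRNAs were measured in small RNA from cultured mouse oligodendrocytes, which make the myelin of brain and spinal cord, and from the extracellular vesicles (EVs) they released. The members were all miRNAs whose name ends in a copy number and an arm, such as let-7a-1-3p. A further 9 names of that form, from the miR-219, miR-297, miR-466, miR-467 and miR-669 families or with much higher numbers, were set aside by the rule. This gave 53 of 1906 miRNAs in 26 families, a family being the copies that share a number, a letter and an arm. The study has 3 EV libraries and 3 libraries of whole cells (Cells). All came from primary oligodendrocytes of C57BL/6N mice at embryonic day 14, kept in Sato medium with 1% horse serum. The EV fraction was the 100000 g pellet of culture medium gathered over 24 h without serum (Sato with B27) at 5 to 6 days in vitro, and Cells were harvested at 6 days. Whether the replicates come from separate cultures is not stated in the labels, so p-values measure only how these samples spread, and that spread may be technical.

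A miRNA gene is transcribed into a hairpin from which a 5p arm and a 3p arm can be cut. One arm, the guide, is usually kept in an Argonaute protein and directs it to target mRNAs, and the other, the passenger, is mostly degraded. Duplicated miRNA genes often keep an identical guide and differ in the passenger, so that reads of the guide do not tell the copies apart while reads of the passenger can. The members are such copy-specific arms, 34 of them 3p and 19 of them 5p, and their opposite arms carry no copy number.

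Libraries held 313766 to 689475 counted reads in EVs and 126910 to 202358 in Cells. On the CPM scale, counts relative to the total of their library, 1 read equalled 1.45 to 3.19 CPM for EVs and 4.94 to 7.88 CPM for Cells. Markers of the oligodendrocyte lineage were present in Cells, miR-219a-2-3p at 23529 ± 5180.0 CPM and miR-338-5p at 4037 ± 378 CPM (SD, n = 3). The neuronal miR-124-3p was also present, at 9453 ± 3476 CPM in Cells and 24954 ± 4216 CPM in EVs. The liver miRNA miR-122-5p and the red cell miRNA miR-451a stood at 6074 ± 2085 and 4368 ± 1572 CPM in EVs against 38.9 ± 12.4 and 27.6 ± 23.9 CPM in Cells. The part of RNA from other sources in the differences below was not tested.

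The mature sequences set what each name can report about its locus. They were taken from RefSeq (GRCm38.p6), which held 51 of the 53 members, 21 to 25 bases long. Capitals mark the seed, bases 2 to 8 from the 5′ end, which pairs with targets. Of 26 pairs of copies, 8 share the seed and 18 do not, and a pair differs by 1 to 9 edits (median 5). The let-7 passengers are printed because 2 of the names stand for 1 sequence.
let-7a-1-3p: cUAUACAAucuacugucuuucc
let-7c-2-3p: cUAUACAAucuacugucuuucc
let-7a-2-3p: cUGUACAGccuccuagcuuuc
let-7c-1-3p: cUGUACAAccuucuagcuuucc
let-7f-1-3p: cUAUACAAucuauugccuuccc
let-7f-2-3p: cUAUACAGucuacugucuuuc

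let-7a-1-3p and let-7c-2-3p are identical over all 22 bases, so a read of this sequence does not show whether Mirlet7a-1 or Mirlet7c-2 made it. No other of the 51 matched members shares its sequence with another name. let-7f-1-3p has the seed of this pair, and let-7f-2-3p has another one.

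The pairs below are printed because both copies had reads and were compared. The seeds differ between copies in each of these families except miR-30c and miR-24.
miR-125b-1-3p: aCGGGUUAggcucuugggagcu
miR-125b-2-3p: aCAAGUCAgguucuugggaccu
miR-16-1-3p: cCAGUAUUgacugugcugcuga
miR-16-2-3p: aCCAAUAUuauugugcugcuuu
miR-181a-1-3p: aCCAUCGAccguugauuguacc
miR-181a-2-3p: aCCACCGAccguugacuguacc
miR-138-1-3p: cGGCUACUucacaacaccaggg
miR-138-2-3p: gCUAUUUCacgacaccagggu
miR-7a-1-3p: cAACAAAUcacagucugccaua
miR-7a-2-3p: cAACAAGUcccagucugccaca
miR-30c-1-3p: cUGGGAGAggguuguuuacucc
miR-30c-2-3p: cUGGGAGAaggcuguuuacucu
miR-24-1-5p: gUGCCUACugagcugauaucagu
miR-24-2-5p: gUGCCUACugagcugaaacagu

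The passengers of miR-181a differ by 2 edits, as do those of miR-24, and those of miR-30c and miR-7a by 3. miR-125b and miR-138 differ by 5 edits and miR-16 by 6.

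Copy-specific arms were rare. All 53 together took 0.462% ± 0.0126 of counts in EVs and 0.436% ± 0.0223 in Cells (SD, n = 3). Reads were found in all 6 libraries for 25 members, in some for 20 and in none for 8. A filter on low counts left 19 members to test, each with at least 88 reads over the 6 libraries, and set aside 34 with at most 80. In Cells miR-181a-1-3p was highest (953 ± 138 CPM), then miR-129-2-3p (742 ± 445 CPM). In EVs let-7c-2-3p (921 ± 226 CPM) and miR-129-2-3p (872 ± 244 CPM) led, ahead of miR-181a-1-3p (587 ± 77.4 CPM). The libraries of the first 2 members overlapped in both groups, so their order was not resolved.

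**Figure D1:**
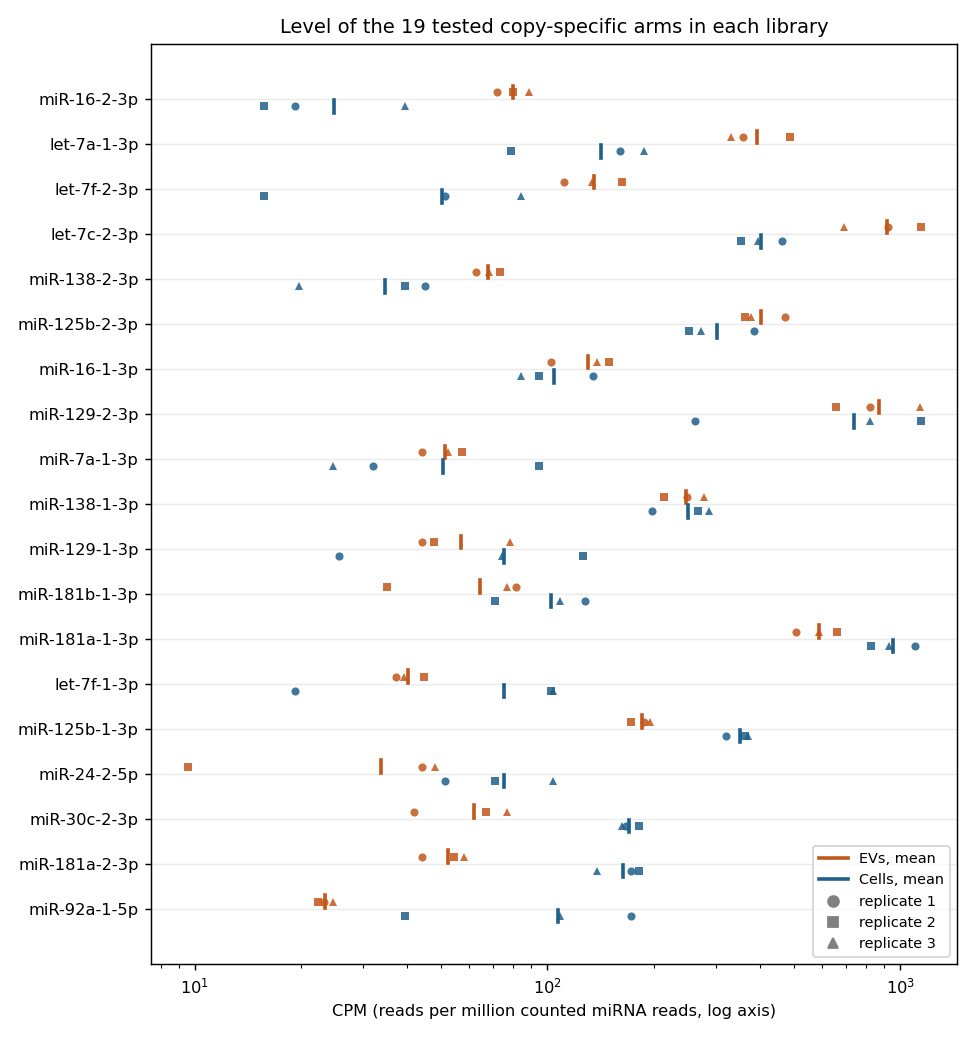
CPM of each tested copy-specific arm (log axis), with 1 point per library, colours for EVs and Cells and a bar for the group mean. miR-181a-2-3p, miR-30c-2-3p and miR-92a-1-5p lie lower in all EV libraries than in all Cells libraries, and let-7a-1-3p and miR-16-2-3p lie higher.

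Which genomic copy gave the reads could be asked in 13 families with at least 20 reads in each group. In 10 of them the arm of 1 name led in all 6 libraries, copy 1 in 6 families and copy 2 in 4. These include let-7a (copy 1) and let-7c (copy 2), whose leading arms are 1 sequence, so the leading locus is not known there. How well each sequence was captured in the library is not known. These are therefore shares of copy-specific reads, not of the output of each gene.

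In some families almost all reads of the copy-specific arm came from 1 copy. Mir92-1 lies in Mir17hg, the host transcript of the miR-17 cluster, and gave every read of its family: miR-92a-1-5p had 34 reads in EVs and 54 in Cells, and miR-92a-2-5p had 0 in all 6 libraries. The exact binomial 95% interval of the copy 1 share reached down to 89.7% in EVs and 93.4% in Cells, for counting error only. miR-19b-1-5p, from the same transcript, had 45 and 5 reads, and miR-19b-2-5p had 0. With 5 reads in Cells this family was under the limit of 20, so its copy share was not compared. Opposite arms that either copy can yield were abundant, with 26275 reads of miR-19b-3p and 23581 of miR-92a-3p in EVs. Beside the second copies, miR-20b-5p had 32 reads in EVs and 3 in Cells.

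let-7a-1-3p held 99.1% ± 0.328 of its family in EVs and 95.7% ± 4.56 in Cells, and let-7c-1-3p only 1.05% ± 0.376 and 4.49% ± 2.86 of its own. Because let-7a-1-3p and let-7c-2-3p are 1 sequence, the leading arms of both families have the same mature sequence. let-7a-2-3p and let-7c-1-3p had 7 and 23 reads over the 6 libraries. Of the reads under the shared sequence, let-7a-1-3p was given 30.0% ± 2.25 in EVs and 25.4% ± 7.02 in Cells (exact permutation p = 0.4, two-sided). The counts therefore split 1 sequence over 2 rows. The split was uneven in every library, at 18.2% to 32.3% for let-7a-1-3p, and overlapped between the groups. Its basis is not known.

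miR-129-2-3p, whose gene lies inside Mir670hg, outnumbered miR-129-1-3p in every library, with copy 1 at 6.10% ± 0.874 in EVs and 9.04% ± 0.835 in Cells. Copy 2 also led for miR-30c, with copy 1 at 8.19% ± 8.75 and 7.15% ± 6.65, and for miR-24, at 15.1% ± 8.59 and 14.2% ± 8.45. Copy 1 led for miR-181a (91.8% ± 0.714 and 85.2% ± 2.73) and miR-181b (90.1% ± 10.1 and 93.6% ± 5.53). It led as well for miR-138 (78.2% ± 3.27 and 87.4% ± 5.99) and miR-16 (61.6% ± 3.36 and 80.4% ± 10.8).

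For miR-125b, let-7f and miR-7a no copy led in every library. For miR-125b, copy 1 held 28.5%, 32.1% and 34.1% of reads in the EV libraries and 45.5%, 59.0% and 57.7% in Cells. Copy 2 led in all EV libraries, and copy 1 in 2 of 3 Cells libraries. For let-7f, copy 1 held 25%, 21.5% and 22.7% in EVs and 27.3%, 86.7% and 55.3% in Cells, where the libraries spread widely. For miR-7a, copy 1 held 59.6% ± 14.0 in EVs and 73.2% ± 11.7 in Cells, and the groups overlapped.

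**Figure D2:**
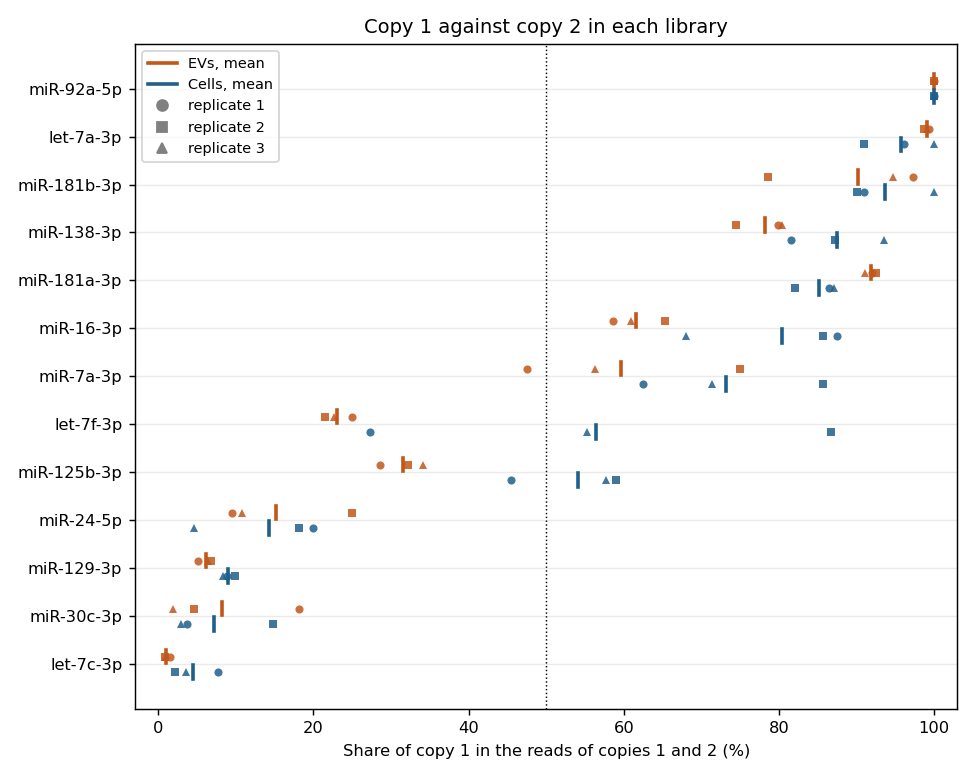
Share of copy 1 in the reads of copies 1 and 2 (%), for the 13 families with at least 20 reads in each group, with 1 point per library and a bar for the group mean. For miR-125b-3p and miR-16-3p the shares of all EV libraries are below those of all Cells libraries, and for miR-181a-3p they are above.

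Whether the copy share differed between EVs and Cells was asked next. The groups did not overlap in 7 of the 13 families, and for scale, ratios of opposite arms did not overlap in 45.7% of 210 arm pairs. Copy 1 had the lower share in EVs for let-7c, let-7f, miR-125b, miR-129, miR-138 and miR-16, and the higher share for miR-181a. The gap was narrow for let-7f (Cells replicate 1 at 27.3%, EVs up to 25%) and miR-138 (81.6%, EVs up to 80.3%). A two-sided exact permutation test gave p = 0.1 in each of the 7, which is the lowest value 3 against 3 can reach, and 0.186 after Benjamini-Hochberg (BH) adjustment over the 13, so none passed. A limma test of the log2 copy ratio, chosen after seeing the data, covered 10 families within 1 fit of 220 ratios, of which 30.5% were called at an adjusted p below 0.05.

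That test called 2 of 10 copy ratios, both lower in EVs. With replicate numbers as blocks it called 3. For miR-125b-1-3p over miR-125b-2-3p the log2 difference, EVs minus Cells, was -1.35 (SE 0.43, limma BH-adjusted p 0.0424). The block raised the adjusted p to 0.0557. Leaving out any library other than Cells replicate 1 did so too, at 0.0749 to 0.135. For let-7c-1-3p over let-7c-2-3p the log2 difference was -2.14 (SE 0.51, limma BH-adjusted p 0.0150), resting on 13 reads of let-7c-1-3p in EVs and 10 in Cells. Without EVs replicate 3 its adjusted p was 0.0584. Because let-7c-2-3p has the sequence of let-7a-1-3p, reads from Mirlet7a-1 can enter this ratio, and it need not compare 2 copies of let-7c.

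The other 8 copy ratios did not pass with all 6 libraries and no block. let-7f was at -2.19 (SE 0.82, limma BH-adjusted p 0.0694), and at an adjusted p of 0.0263 with the block and 0.0215 without Cells replicate 1. let-7a was at 1.99 (SE 0.80, limma BH-adjusted p 0.0840), at 0.0257 with the block and at 0.0125 without Cells replicate 3. It rested on 5 reads of let-7a-2-3p in EVs and 2 in Cells, and let-7a-1-3p shares its sequence with let-7c-2-3p. miR-16 was at -1.32 (SE 0.51, limma BH-adjusted p 0.0762) and passed without Cells replicate 3 (adjusted p 0.0290). miR-181a was at 0.95 (SE 0.40, limma BH-adjusted p 0.102). For miR-138, miR-129, miR-181b and miR-30c the adjusted p was 0.176 to 0.994.

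Each copy-specific arm was then compared between EVs and Cells with edgeR's quasi-likelihood test, over 336 miRNAs. Of the 19 tested members, 2 were higher in EVs (10.5%, against 28.6% of all miRNAs tested) and 8 lower (42.1%, against 28.9%). Their median log2 difference was -0.49, that of all 336 was 0.06. The fit carries TMM factors that CPM lack, so a small log2 difference can have another sign than the CPM means. With the replicate block edgeR called 0 higher (3 at an unadjusted p below 0.05, and DESeq2 without the block called 1) and 7 lower. In bulk RNA of cells or vesicles, the mix of sources and the level within a source cannot be told apart. Scaling by library size only moved the median of all miRNAs to 0.54 and gave 4 higher and 5 lower. CPM did not overlap for 11 members, 5 of them higher in EVs (26.3%, against 47.3% of all tested) and 6 lower (31.6%, against 20.2%).

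Among the let-7 passengers, let-7a-1-3p measured 357, 488 and 331 CPM in the EV libraries against 160.1, 78.8 and 188 CPM in Cells. Every EV library was above every Cells library (log2 difference 0.96, SE 0.34, edgeR BH-adjusted p 0.0348). With the block the adjusted p was 0.0701. It also missed the threshold when 1 library was left out, be it EVs replicate 1 (0.0658), EVs replicate 2 (0.144), Cells replicate 2 (0.104) or Cells replicate 3 (0.0565). let-7c-2-3p measured 926, 1144 and 692 CPM in the EV libraries against 461, 355 and 395 CPM in Cells, again without overlap. This row of the same sequence missed the threshold (log2 difference 0.72, SE 0.28, edgeR BH-adjusted p 0.0517), and passed it with library size only, without a filter, after thinning, or without EVs replicate 3 or Cells replicate 1. Summed as 1 sequence, they gave 1312 ± 306 CPM in EVs and 546 ± 99.2 in Cells (log2 difference 0.80, SE 0.29, edgeR BH-adjusted p 0.0357).

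The 2 let-7f passengers had differences of opposite sign. let-7f-1-3p measured 37.1, 44.6 and 39.2 CPM in the EV libraries against 19.2, 102 and 104 CPM in Cells. This arm comes from 6720427I07Rik, the transcript that also holds Mirlet7a-1. Cells replicate 1 was below the EV libraries and the other 2 were above, so the groups overlapped (log2 difference -1.35, SE 0.48, edgeR BH-adjusted p 0.0356). The call ended with the block (adjusted p 0.0546), with library size only (-0.91) and without any library other than Cells replicate 1 (adjusted p 0.0548 to 0.183). let-7f-2-3p measured 111, 163 and 133 CPM in the EV libraries against 51.2, 15.8 and 84.0 CPM in Cells. This arm comes from an intron of the ubiquitin ligase gene Huwe1, and all its EV libraries were above all Cells libraries (log2 difference 0.87, SE 0.45, edgeR BH-adjusted p 0.122). It passed only with library size only (1.33, adjusted p 0.0221).

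The miR-125b passengers come from 2 long non-coding host transcripts, Mir99ahg for copy 2 and 3110039I08Rik for copy 1. miR-125b-1-3p measured 188, 172 and 196 CPM in the EV libraries against 320.1, 362 and 371 CPM in Cells. It fell without overlap (log2 difference -1.39, SE 0.19, edgeR BH-adjusted p 0.000357), and was called in every alternative run. miR-125b-2-3p measured 471, 363 and 379 CPM in the EV libraries against 384, 252 and 272 CPM in Cells. Cells replicate 1 was above 2 of the EV libraries, and no difference was called (log2 difference -0.071, SE 0.26, edgeR BH-adjusted p 0.851). With library size only the sign turned (0.42).

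The miR-16 passengers come from the long non-coding transcript Dleu2 (copy 1) and the condensin gene Smc4 (copy 2). miR-16-2-3p measured 71.9, 79.7 and 88.5 CPM in the EV libraries against 19.2, 15.8 and 39.5 CPM in Cells. All EV libraries were above all Cells libraries, where the arm had only 3, 2 and 8 reads. It rose (log2 difference 1.14, SE 0.42, edgeR BH-adjusted p 0.0391), but missed the threshold with the block (0.0594), with DESeq2 (0.0834), without a filter (0.0610) and without any library other than Cells replicate 3 (0.0596 to 0.128). miR-16-1-3p measured 102, 149.8 and 138 CPM in the EV libraries against 134, 94.6 and 84.0 CPM in Cells. These groups overlapped (log2 difference -0.16, SE 0.33, edgeR BH-adjusted p 0.733), and the sign turned with library size only (0.32).

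The tested passengers of miR-181, a family known from brain and lymphoid cells, fell. miR-181a-2-3p measured 44.1, 54.2 and 58.0 CPM in the EV libraries against 173, 181 and 138 CPM in Cells (log2 difference -2.11, SE 0.30, edgeR BH-adjusted p 0.000372). miR-181a-1-3p measured 508, 663 and 590.3 CPM in the EV libraries against 1101, 827 and 929 CPM in Cells (log2 difference -1.17, SE 0.25, edgeR BH-adjusted p 0.00340). For both, the EV libraries were all below the Cells libraries and the call held in every alternative run. miR-181b-1-3p measured 81.2, 35.1 and 76.9 CPM in the EV libraries against 128, 70.9 and 109 CPM in Cells. miR-181b-1 shares the transcript Gm4258 with miR-181a-1, and its passenger fell with groups that overlapped (log2 difference -1.15, SE 0.39, edgeR BH-adjusted p 0.0298). The threshold was missed with library size only (-0.65), without a filter (-0.99), after thinning (-1.01), without Cells replicate 1 (-0.90) and without Cells replicate 3 (-1.17).

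A further 3 members fell without overlap. miR-92a-1-5p measured 23.2, 22.3 and 24.7 CPM in the EV libraries against 173, 39.4 and 109 CPM in Cells (log2 difference -2.70, SE 0.52, edgeR BH-adjusted p 0.00230). The Cells libraries were far apart, and the log2 difference was -3.08 to -2.13 when a library was left out. miR-30c-2-3p measured 41.8, 66.9 and 76.9 CPM in the EV libraries against 166, 181 and 163 CPM in Cells (log2 difference -1.91, SE 0.31, edgeR BH-adjusted p 0.000870). Both calls held in every alternative that tested them. miR-24-2-5p comes from the cluster of miR-23a and miR-27a. miR-24-2-5p measured 44.1, 9.56 and 47.9 CPM in the EV libraries against 51.2, 70.9 and 104 CPM in Cells (log2 difference -1.56, SE 0.49, edgeR BH-adjusted p 0.0219). Its EVs replicate 2 had 3 reads. The call ended with library size only (-1.09) and without Cells replicate 3 (-1.28).

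The tested copy-specific arms of miR-138, miR-129 and miR-7a were not called. miR-138-1-3p measured 248, 214 and 278 CPM in the EV libraries against 198, 268 and 287 CPM in Cells, with overlap (log2 difference -0.49, SE 0.21, edgeR BH-adjusted p 0.0666). It passed only with DESeq2-type size factors in edgeR (-0.55, adjusted p 0.0436). miR-138-2-3p measured 62.6, 73.3 and 68.2 CPM in the EV libraries against 44.8, 39.4 and 19.8 CPM in Cells. All EV libraries were above Cells, on 16 reads in Cells (log2 difference 0.54, SE 0.43, edgeR BH-adjusted p 0.314).

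miR-129-2-3p measured 819, 659.7 and 1139 CPM in the EV libraries against 263, 1143 and 820.3 CPM in Cells (log2 difference -0.19, SE 0.39, edgeR BH-adjusted p 0.715). miR-129-1-3p measured 44.1, 47.8 and 78.3 CPM in the EV libraries against 25.6, 126 and 74.1 CPM in Cells (log2 difference -0.79, SE 0.47, edgeR BH-adjusted p 0.172). Cells replicate 1 was the lowest Cells library for both miR-129 copies, and without it miR-129-1-3p passed (-1.16, adjusted p 0.0488). miR-7a-1-3p measured 44.1, 57.4 and 52.2 CPM in the EV libraries against 32.0, 94.6 and 24.7 CPM in Cells (log2 difference -0.34, SE 0.50, edgeR BH-adjusted p 0.597). This arm comes from an intron of Hnrnpk, which encodes an RNA-binding protein. The sign turned with library size only for miR-129-2-3p (0.24) and miR-7a-1-3p (0.11).

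**Figure D3:**
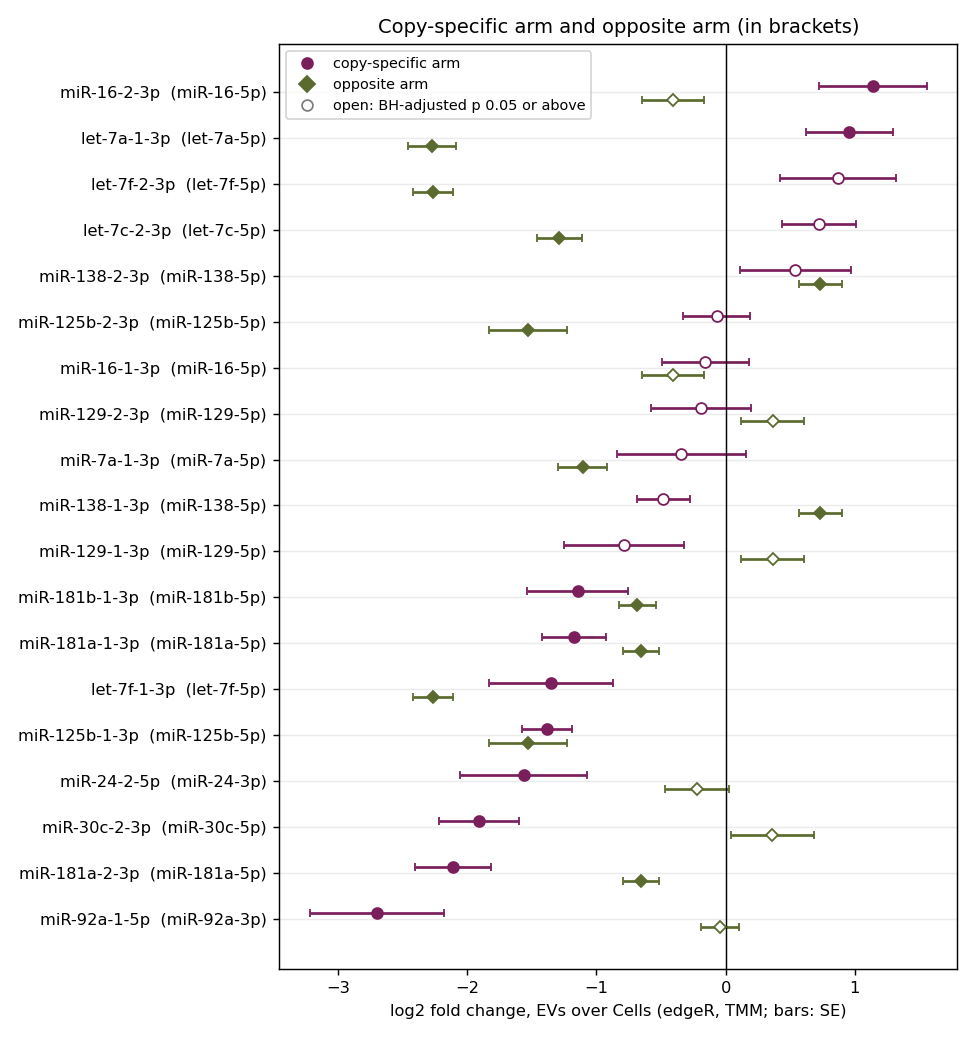
Log2 difference of EVs over Cells (edgeR, bars show SE) for each tested copy-specific arm and for its opposite arm; filled symbols have a BH-adjusted p below 0.05. let-7a-1-3p lies at 0.96 while let-7a-5p lies at -2.27, and miR-30c-2-3p at -1.91 while miR-30c-5p lies at 0.36.

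The opposite arms, which the copies share, were compared in the same fit. Of 24 tested, 3 were higher in EVs (12.5%, against 28.6% of all miRNAs tested) and 11 lower (45.8%, against 28.9%), with a median log2 difference of -0.61, against 0.06. The 5p arms of let-7, the guides of these hairpins, fell: let-7a-5p was at -2.27 (SE 0.19, edgeR BH-adjusted p 2.36e-05), let-7f-5p at -2.26 (SE 0.16, edgeR BH-adjusted p 1.15e-05) and let-7c-5p at -1.29 (SE 0.17, edgeR BH-adjusted p 0.000314). Of the other arms that fell, miR-125b-5p was at -1.53 (SE 0.30, edgeR BH-adjusted p 0.00243) and miR-7a-5p at -1.11 (SE 0.19, edgeR BH-adjusted p 0.00130). The 3 that rose were miR-138-5p at 0.73 (SE 0.17, edgeR BH-adjusted p 0.00482), miR-19b-3p at 1.29 (SE 0.26, edgeR BH-adjusted p 0.00278) and miR-128-3p at 0.84 (SE 0.30, edgeR BH-adjusted p 0.0348). The call of miR-128-3p ended when EVs replicate 1 or 2, or Cells replicate 2 or 3, was left out (0.60 to 1.26 over the 6 libraries).

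The ratio of a copy-specific arm to its opposite arm needs no scaling between libraries. Reads of the opposite arm are pooled over the copies that share it, so this ratio is not that of 1 hairpin. limma was run on log2 of this ratio with 0.5 added to each count. Among the 19 members past the low-count filter 9 ratios (47.4%) passed, 4 being higher in EVs and 5 lower. Of all 210 arm pairs 33.3% were called, and 37.2% of the 86 with both arms past the filter.

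Of the higher ratios, let-7a-1-3p held 5.37%, 7.79% and 4.24% of the reads of its 2 arms in EVs and 0.643%, 0.374% and 0.859% in Cells (log2 difference 3.29, SE 0.49, limma BH-adjusted p 0.00262). let-7f-2-3p held 0.763%, 1.17% and 0.756% in EVs and 0.0966%, 0.0298% and 0.161% in Cells (log2 difference 3.38, SE 0.59, limma BH-adjusted p 0.00530). In both cases every EV library was above every Cells library, and the call held in every alternative run. The ratio of let-7c-2-3p rose as well (log2 difference 1.98, SE 0.46, limma BH-adjusted p 0.0129), except without EVs replicate 1 (adjusted p 0.0510). Since let-7a-1-3p and let-7c-2-3p are 1 sequence, these 2 ratios depend on how its reads were split. The ratio of miR-16-2-3p rose (log2 difference 1.52, SE 0.51, limma BH-adjusted p 0.0476), but of the fits without a library it was called only in that without Cells replicate 1. It also missed the threshold with at least 30 counts over both arms (adjusted p 0.0508) and with both miR-16 copies summed (0.429).

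For let-7f-1-3p both arms fell, let-7f-5p by more, and the ratio did not pass (log2 difference 1.18, SE 0.64, limma BH-adjusted p 0.190). For miR-125b the ratio of copy 1 to miR-125b-5p was near 0 (log2 difference 0.083, SE 0.48, limma BH-adjusted p 0.892), and that of copy 2 did not pass (log2 difference 1.43, SE 0.59, limma BH-adjusted p 0.0893), except without Cells replicate 1 (0.0204). The ratio of miR-129-1-3p (log2 difference -1.10, SE 0.68, limma BH-adjusted p 0.246) likewise passed only without Cells replicate 1 (0.0269).

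Of the lower ratios, miR-30c-2-3p held 0.381%, 0.626% and 0.648% of the reads of its 2 arms in EVs and 5.73%, 1.85% and 2.26% in Cells (log2 difference -2.46, SE 0.55, limma BH-adjusted p 0.0109). miR-92a-1-5p held 0.140%, 0.137% and 0.150% in EVs and 1.53%, 0.312% and 0.818% in Cells (log2 difference -2.37, SE 0.58, limma BH-adjusted p 0.0143). The groups did not overlap, and both calls ended without EVs replicate 1 (adjusted p 0.0503 and 0.0526). The ratio of miR-181a-2-3p fell (log2 difference -1.46, SE 0.41, limma BH-adjusted p 0.0247), but missed the threshold if EVs replicate 1 (0.0909) or 3 (0.0673) was left out, or Cells replicate 2 (0.0683). With both miR-181a copies summed it was at 0.261. The ratio of miR-181a-1-3p did not pass (log2 difference -0.51, SE 0.41, limma BH-adjusted p 0.382).

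miR-24-2-5p held 1.94%, 0.652% and 1.96% of the reads of its arms in EVs and 4.10%, 4.07% and 4.35% in Cells (log2 difference -1.63, SE 0.50, limma BH-adjusted p 0.0366), and leaving out any library ended the call (0.0550 to 0.0808). miR-138-1-3p held 2.14%, 2.27% and 2.49% in EVs and 5.02%, 5.41% and 5.12% in Cells (log2 difference -1.23, SE 0.40, limma BH-adjusted p 0.0423). The threshold was missed with the block (adjusted p 0.0751), with both copies summed (0.0596) and without any library other than Cells replicate 1 (0.0711 to 0.126). miR-129-2-3p came nearest to its opposite arm, with 17.6%, 13.5% and 21.8% in EVs and 8.58%, 37.2% and 28.8% in Cells, and was not called.

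**Figure D4:**
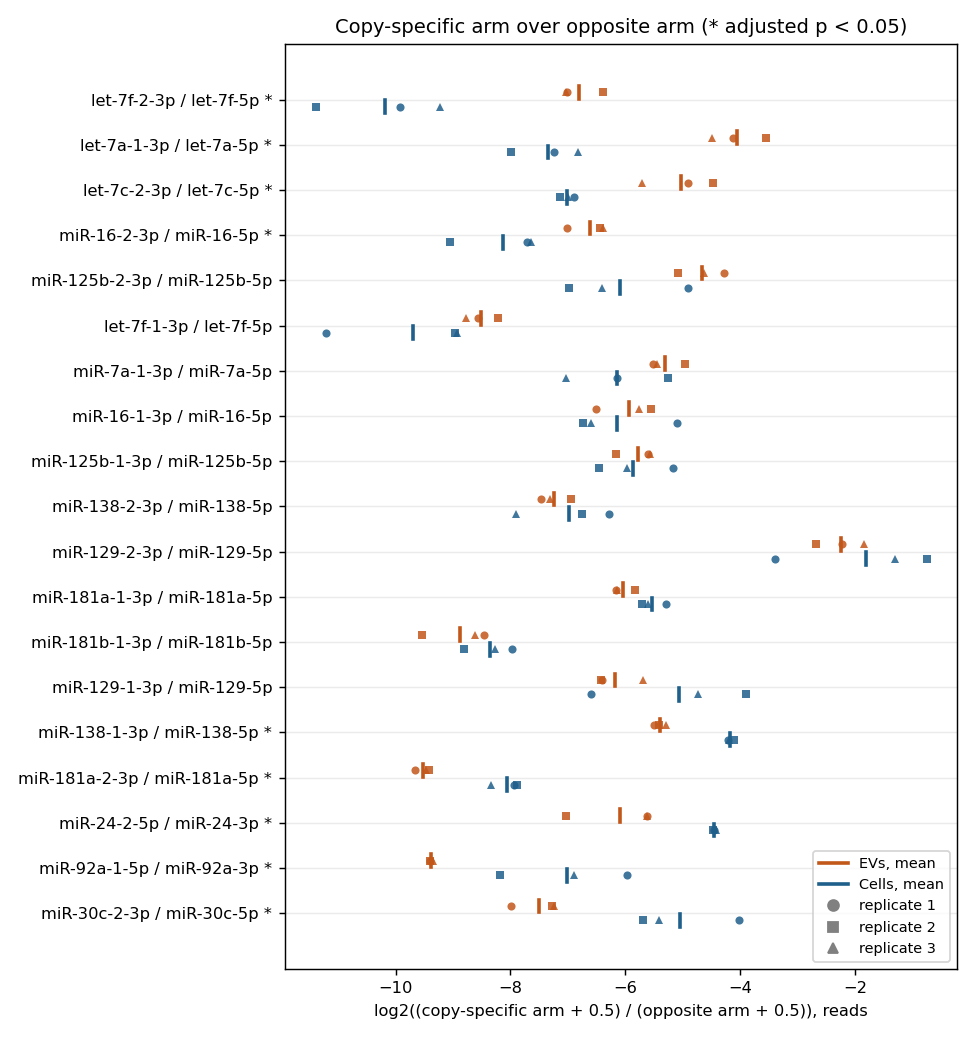
Log2 ratio of each copy-specific arm to its opposite arm, from reads with 0.5 added to each, with 1 point per library and a bar for the group mean. The ratios of let-7f-2-3p and let-7a-1-3p lie higher in all EV libraries than in Cells, and those of miR-30c-2-3p, miR-92a-1-5p and miR-138-1-3p lower.

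Clustered miRNA genes are often transcribed together, so the neighbours of each copy were set beside it. Of 35 tested neighbours that are no members, 12 were higher in EVs (34.3%, against 28.6% of all miRNAs tested) and 9 lower (25.7%, against 28.9%), so both shares lay near those of all miRNAs. The median log2 difference was 0.41, against 0.06. Beside miR-92a-1-5p, which fell, miR-20a-5p was at 0.90 (SE 0.20, edgeR BH-adjusted p 0.00369) and miR-19a-3p at 1.61 (SE 0.26, edgeR BH-adjusted p 0.000877), both higher in EVs. Of its other tested neighbours, miR-17-5p (1.02) and miR-18a-5p (1.30) were also called higher. miR-17-3p (-0.55, edgeR BH-adjusted p 0.0968) and miR-18a-3p (0.20, edgeR BH-adjusted p 0.705) were not called. Beside miR-30c-2-3p, which fell, miR-30a-5p was at 0.53 (SE 0.19, edgeR BH-adjusted p 0.0327) and miR-30a-3p at -0.17 (SE 0.20, edgeR BH-adjusted p 0.488). The first of these was not called when EVs replicate 1 or either of Cells replicates 2 and 3 was left out.

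Beside miR-16-1, miR-15a-5p was at 0.74 (SE 0.23, edgeR BH-adjusted p 0.0205), and it was not called when either of EVs replicates 1 and 2, or Cells replicate 2, was left out. Beside miR-16-2, miR-15b-5p was at 0.44 (SE 0.23, edgeR BH-adjusted p 0.125) and miR-15b-3p at 0.41 (SE 0.28, edgeR BH-adjusted p 0.243). Beside miR-24-2, miR-23a-3p was at -0.87 (SE 0.32, edgeR BH-adjusted p 0.0386) and miR-27a-3p at -0.80 (SE 0.33, edgeR BH-adjusted p 0.0613). miR-23a-3p was not called when EVs replicate 2 or either of Cells replicates 1 and 3 was left out.

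Of the neighbours of the let-7 copies that are no members, the tested 5p arms fell and the tested 3p arms were not called. let-7d-5p, beside let-7a-1 and let-7f-1, was at -2.16 (SE 0.19, edgeR BH-adjusted p 2.36e-05) and let-7d-3p at 0.49 (SE 0.40, edgeR BH-adjusted p 0.335). miR-98-5p, beside let-7f-2, was at -1.79 (SE 0.21, edgeR BH-adjusted p 0.000129) and miR-98-3p at 1.17 (SE 0.56, edgeR BH-adjusted p 0.0998). Like let-7d and let-7b, miR-98 carries the let-7 guide seed. let-7b-5p, beside let-7c-2, was at -0.97 (SE 0.20, edgeR BH-adjusted p 0.00312) and let-7b-3p at -0.52 (SE 0.31, edgeR BH-adjusted p 0.174). Beside miR-125b-2, miR-99a-5p was at -0.86 (SE 0.18, edgeR BH-adjusted p 0.00300) and miR-99a-3p at 0.81 (SE 0.55, edgeR BH-adjusted p 0.232). miR-100-5p, listed with miR-125b-1 but more than 50 kb from it in RefSeq, was at -1.94 (SE 0.20, edgeR BH-adjusted p 6.74e-05).

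The 34 members under the filter had 0 to 32 reads in a library, and 13 of them had 1 to 9 in all. miR-135a-1-3p (80 reads), miR-7a-2-3p (62) and miR-19b-1-5p (50) had the most. miR-103-2-5p, from an intron of Pank2, had 20 reads in EVs and 3 in Cells, and miR-103-1-5p, from an intron of Pank3, 2 and 0. miR-128-1-5p and miR-128-2-5p, from introns of R3hdm1 and Arpp21, had 10 and 16 reads in all, against 108876 of miR-128-3p in EVs. These counts are too low to order the copies between groups.

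miR-218-2-3p, from an intron of the axon guidance gene Slit3, had 14 reads in EVs (9.76 CPM over the group) and 0 in Cells. This is 1.58-fold above a floor of 3 reads over the Cells group (6.18 CPM). The counting error of the 14 EV reads is left out, so 1.58 is no lower bound of the difference. The passengers of the muscle miRNA miR-1a had 0 reads in all 6 libraries, which allows up to 4.35 to 9.56 CPM for EVs and 14.8 to 23.6 CPM for Cells, depending on the library.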

How the data were processed

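For every sample the authors deposited a table of counts: reads assigned to each mature miRNA, not normalized. Build NCBIM37 (mm9) was used, per the submitters' processing notes. The same notes name these tools, without their settings: featureCounts 1.4.6-p4, Bowtie 0.12.8, bcl2fastq 1.8.4, cutadapt 1.7.1. How reads with several matches were assigned is not given in the sources used here, which bears on let-7a-1-3p and let-7c-2-3p. RefSeq and GENCODE tables of another build (GRCm38) served for sequences, hosts and neighbours only, so no coordinates are given.

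Members and lists were chosen with earlier results of these data known. EVs and Cells were compared with edgeR 4.0.16 (glmQLFTest, TMM, filterByExpr with minimum count 10, BH over 336 miRNAs, threshold 0.05). CPM shown use library totals, while fitted log2 differences also carry the TMM factors. Arm ratios (210 pairs, both arms together reaching 10 counts in each library) were tested with limma 3.58.1. DESeq2 1.42.0 was an alternative. Arm ratios are given only for members past the filter, a limit set after seeing the data. The reason was that miR-19b-2-5p and miR-92a-2-5p, with 0 reads throughout, were called through their opposite arms alone. The limit left out 7 called members in all. The others had reads: miR-103-2-5p (log2 difference 2.13, limma BH-adjusted p 0.0146), miR-218-2-3p (2.17, 0.0138) and miR-7a-2-3p (1.63, 0.0420) were higher in EVs. miR-128-1-5p (-3.04, 0.0124) and miR-30c-1-3p (-2.47, 0.0285) were lower. On simulated 4-fold changes edgeR recovered 180 of 182 (358 miRNAs) and the arm test 20 of 45 (231 pairs), so the arm test misses many changes. For edgeR the changed miRNAs were drawn from the most abundant ones, with the same dispersion for all. Most tested members differed by less than 4-fold, so the recovery of their differences is not known. Every tested member is named, with its other copy and up to 2 neighbours by mean CPM. Further neighbours of miR-92a-1 were named after their values were seen. Opposite arms named without being part of an arm ratio were chosen after their values were seen.

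EV and Cells libraries with the same replicate number, taken from the labels, deviated weakly together from their group means (correlations 0.115, 0.106 and 0.256). Libraries with different numbers had correlations of -0.148 to 0.0213. The main tests did not use the pairing by replicate number and compared the groups only. The fit with the replicate number as a block was an alternative, and it stands beside a result where it changes the call.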

Additional observations from a re-analysis of the deposited data

How the results depend on the processing

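Members called higher in EVs (2) numbered 4 with library size only, 1 with DESeq2, 0 with the replicate block and 0 to 2 when a library was left out, falling to 0 if EVs replicate 1 or 2, or Cells replicate 2, was the one left out (2, 1 and 0 at an unadjusted p below 0.05) and 1 without Cells replicate 3. Members called lower (8) numbered 5 with library size only, 4 after thinning to 126910 counts, where 12 members were still tested, and 5 to 8 when a library was left out, the lowest without Cells replicate 3. Arm ratios called higher (4) numbered 2 to 5, and those called lower (5) 0 to 5, when a library was left out. Without EVs replicate 1 limma called 2 higher and 0 lower (5 lower at an unadjusted p below 0.05). It called 3 lower without EVs replicate 2, 2 without EVs replicate 3, 2 without Cells replicate 2 and 3 without Cells replicate 3. With the copies of a family summed, 3 were lower. Families with copy shares that did not overlap (7) numbered 7 to 8. Beyond the calls given with the results, the replicate block changed no other call of a member past the filter. It also called the arm ratio of miR-29b-1-5p, which is under the filter (adjusted p 0.133 without and 0.0135 with the block). Depth limits most members: 34 of 53 could not be tested.

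Signs turned only for differences that were not called. For log2 differences between groups, library size only gave 0.42 (miR-125b-2-3p), 0.24 (miR-129-2-3p), 0.32 (miR-16-1-3p) and 0.11 (miR-7a-1-3p), and no filter gave 0.086 (miR-125b-2-3p) and 0.0034 (miR-16-1-3p). Leaving out a library spanned -0.22 to 0.21, -0.58 to 0.20, -0.41 to 0.15 and -0.76 to 0.35 for these 4 members in the order first given. For arm ratios it spanned -0.21 to 0.43 (miR-125b-1-3p), -1.22 to 0.10 (miR-129-2-3p), -0.72 to 0.089 (miR-138-2-3p) and -0.10 to 0.72 (miR-16-1-3p). For log2 copy ratios it spanned -0.90 to 0.56 (miR-181b) and -0.83 to 0.73 (miR-30c). For copy shares, in percentage points, it spanned -7.03 to 2.30 (miR-181b), -4.08 to 3.75 (miR-24) and -3.95 to 4.87 (miR-30c). Pooled reads gave -0.34 (miR-24) and -0.70 (miR-30c), and 0.5 added to each copy gave -0.43 (miR-92a). The cause of these shifts was not tested.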
